A study of Mus musculus with 10 samples.

Results

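The immediate early transcription factors are 10 genes, Egr1, Egr2, Egr3, Fos, Fosb, Fosl1, Jun, Junb, Ier2 and Nr4a1, of the 38087 genes in the exon and intron tables of both temperature courses. They were chosen by gene symbol. The study followed total RNA of wild-type NIH3T3 cells, an immortal mouse fibroblast line, after a mild change of culture temperature. After 4 h at 37 °C the cells were held for 16 h at 38 °C or at 33 °C. The downshift course then went from 38 to 33 °C and the upshift course from 33 to 38 °C. Each course was sampled at 0, 1, 3, 6 and 9 h, with 1 sample per time, so each group is 1 sample of the same wild-type line and the 0 h sample is the only unshifted one of its course.

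Immediate early genes are transcribed within minutes of growth factor, stress or calcium signals and need no new protein synthesis for it. Kinases of the MAP kinase pathways act on factors already bound at their promoters, among them SRF with its ternary complex partners and CREB, and the mRNAs are then lost quickly because they are unstable. FOS and JUN proteins pair to form the AP-1 factor, EGR proteins bind GC-rich sites through zinc fingers, and NR4A1 is an orphan nuclear receptor. In fibroblasts this response is known above all from serum stimulation.

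Promoter windows of 250 bases before a RefSeq start (GRCm38.p6) were at hand for 6 of the 10 genes, Egr2, Fos, Fosb, Jun, Junb and Nr4a1. Windows of Egr2 and Fos are printed because these genes stood highest at 1 h of the upshift, and that of Nr4a1 because it stood lowest among the members in its change over the same hour. All 3 genes lie on the plus strand, at chr10:67537619-67537868 for Egr2 (1 of its 5 windows), chr12:85473640-85473889 for Fos and chr15:101266596-101266845 for Nr4a1. Capitals mark a CArG box, the element bound by SRF, and TGACG on either strand, the core of the element bound by CREB.
Egr2: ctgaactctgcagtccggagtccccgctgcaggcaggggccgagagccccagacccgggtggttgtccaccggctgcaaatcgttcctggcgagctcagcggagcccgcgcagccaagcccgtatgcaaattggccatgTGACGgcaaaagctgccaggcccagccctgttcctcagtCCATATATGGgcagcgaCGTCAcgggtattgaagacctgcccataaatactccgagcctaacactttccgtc
Fos: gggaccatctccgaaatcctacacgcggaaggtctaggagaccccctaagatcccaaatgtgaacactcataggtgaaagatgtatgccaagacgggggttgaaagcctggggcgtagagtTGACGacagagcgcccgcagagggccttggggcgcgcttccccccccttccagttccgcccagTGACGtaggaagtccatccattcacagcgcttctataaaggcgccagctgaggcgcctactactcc
Nr4a1: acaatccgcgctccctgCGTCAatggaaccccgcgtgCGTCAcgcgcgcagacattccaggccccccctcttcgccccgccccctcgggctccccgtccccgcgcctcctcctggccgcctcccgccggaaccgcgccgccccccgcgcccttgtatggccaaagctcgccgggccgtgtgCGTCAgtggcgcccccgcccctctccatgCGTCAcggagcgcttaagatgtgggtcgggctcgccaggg

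The Egr2 window held a CArG box, CCATATATGG, beginning 72 bases before the start, with TGACG at 111 and 55 bases. Another Egr2 start had CCTTTTTTGG, also 72 bases before it, and no TGACG in its window. The window before the Egr2 start at chr10:67535499 held none of the searched motifs. The Fos window held TGACG at 129 and 66 bases, and the Nr4a1 window held it 4 times, at 233, 213, 69 and 40 bases. Fosb had TGACG at 60 bases and Junb at 106 bases, and the Jun window had none of the searched motifs. Among 32851 RefSeq windows of this length, searched on both strands, 1.47% held a CArG box and 17.8% held TGACG. The AP-1 motif TGANTCA (6.75% of windows) and the heat shock element, 3 alternating GAA and TTC units 2 bases apart (0.466%), were in none of the members' windows. The EGR motif GCGNGGGCG (4.70%) was in those of Fosb, 50 bases before the start, and Nr4a1, 60 bases before it. No marked matches overlapped, and a match is a match of letters only.

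The 22 exon columns summed to 22403590 to 48004603 reads, and the 22 intron columns to 15313355 to 25233539. Each sample has 2 complete columns, named by numbered series, 5 and 11 in the downshift and 2 and 13 in the upshift, which were summed and counted as 1 sample. The labels do not say what the series numbers mean. Of 11 fibroblast markers 10 had a mean of at least 1 RPKM (exon reads scaled by exon length and by library size), with a summed level of 6312 to 9490 RPKM per sample. Macrophage markers reached that level for Cd68 and Lyz2, 2 of 6 (sum 9.74 to 11.8), epithelial markers for Krt14, 1 of 6 (17.7 to 30.4), and endothelial and neuronal markers for 0 of 5 each.

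Before any shift the members differed greatly in level. Jun, the main AP-1 partner, was the most abundant at 68.9 RPKM in the 0 h sample at 38 °C and 79.7 RPKM in that at 33 °C. Fosl1, a FOS relative typical of growing fibroblasts, followed at 21.6 and 27.9 RPKM, Ier2, a nuclear regulator of immediate early expression, at 14.0 and 22.6, and Junb, a JUN relative, at 12.97 and 13.6. Nr4a1 stood at 1.68 and 3.32 RPKM, Egr1 at 0.842 and 1.55, and Egr2 at 0.678 and 1.09. Fos stood at 0.338 and 0.265 RPKM. Fosb and Egr3, close relatives of Fos and Egr1, lay between 0.0626 and 0.261 and between 0.0389 and 0.0816 RPKM over all 10 samples. Fos, Fosb and Egr3 averaged under 1 RPKM and so stayed out of the tests across genes, which covered 7 members and 10173 genes. Egr2 passed this filter only through its 1 h sample of the upshift: its mean was 1.14 RPKM over all samples and 0.883 over the other 9. Its pulse, slopes and correlations, and any count of members with Egr2 among those counted, are therefore descriptions and support nothing. With 1 sample at each start temperature the levels were not tested. At 33 °C series 2 and 13 differed widely for Jun (117.9 and 46.4 RPKM), Fosl1 (45.4 and 12.5) and Junb (7.54 and 19.45), less for Ier2 (24.05 and 21.65). At 38 °C Jun had 70.9 and 66.9 RPKM in series 5 and 11, so its order between the temperatures depended on the series.

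**Figure D1:**
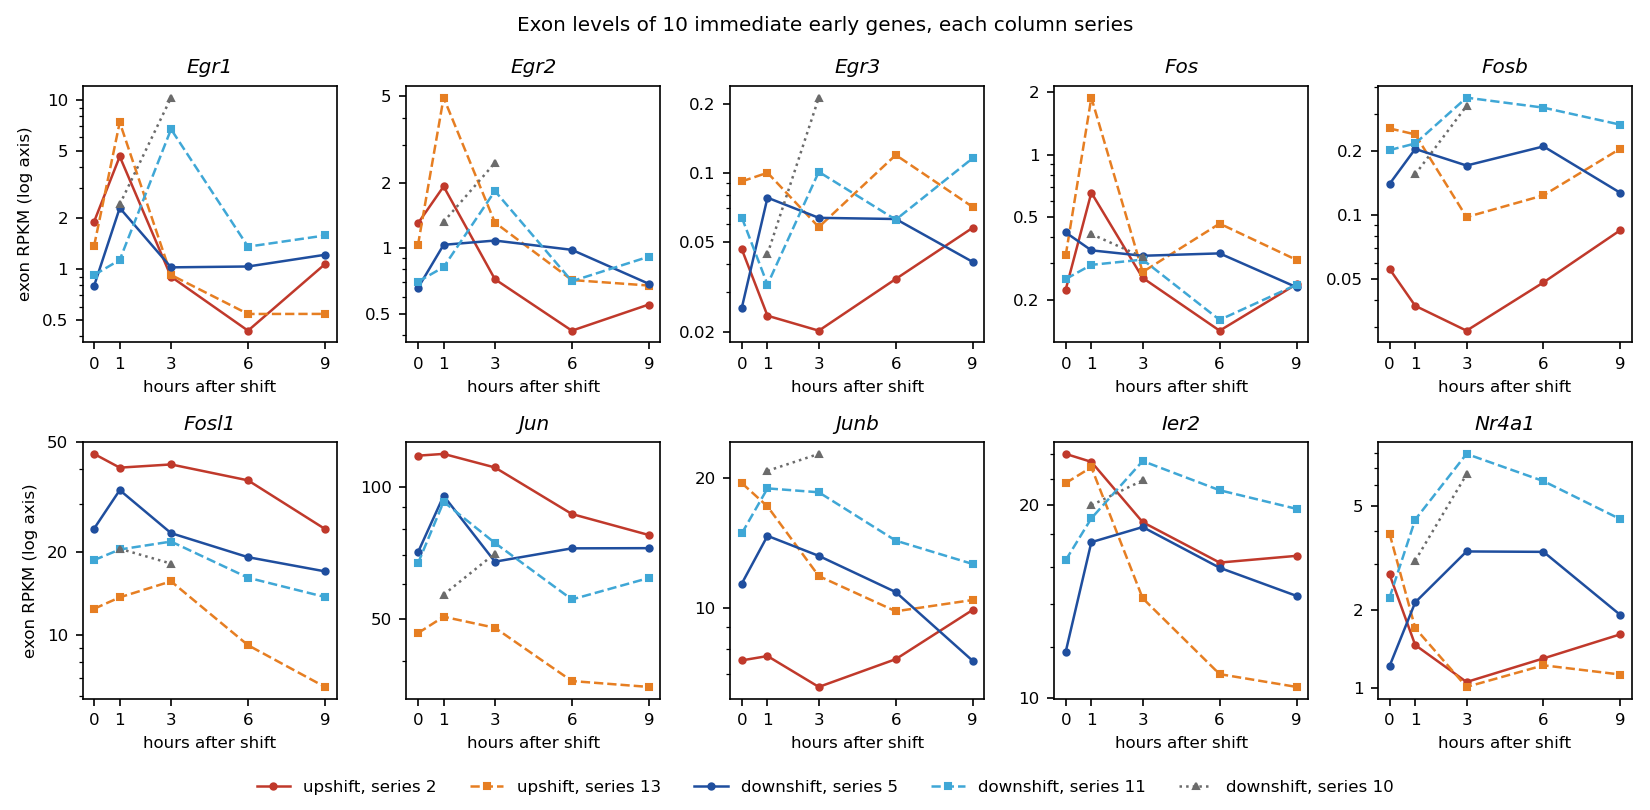
Exon level (RPKM, log axis) of each member against hours after the shift, 1 line per column series, with upshift series in red and orange and downshift series in blue, light blue and grey. Egr1, Egr2, Fos and Jun were highest at 1 h in both upshift series, whereas Nr4a1 was highest at 0 h there and at 3 h in both main downshift series.

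After warming, Egr1, Egr2 and Fos showed a short pulse at 1 h. In bulk RNA a change within each cell and a change in how many cells express a gene cannot be told apart. Egr1, the growth factor response factor that gives its family its name, measured 1.55 RPKM at 0 h of the upshift, 5.96 at 1 h, 0.892 at 3 h, 0.483 at 6 h and 0.852 at 9 h. Egr2, best known from Schwann cell myelination, measured 1.09, 3.42, 1.01, 0.564 and 0.625 RPKM at the same times. Fos, the classic AP-1 subunit, measured 0.265, 1.26, 0.253, 0.296 and 0.280 RPKM. In all 3 genes the 1 h sample stood above the other 4 samples of its course, and the level at 3 h was back at or below that at 0 h.

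The pulse was present in both series but not equally large. Egr1 went from 1.91 to 4.63 RPKM in series 2 and from 1.37 to 7.38 in series 13, and the highest of the 5 times was 10.7 times the lowest in series 2 and 13.6 times in series 13. Fos went from 0.223 to 0.655 RPKM in series 2, on 18 and 59 exon reads, and from 0.326 to 1.88 in series 13, on 36 and 180 reads. Egr2 went from 1.30 to 1.93 RPKM in series 2 and from 1.04 to 4.94 in series 13. Egr2 therefore changed by 0.53 on the log2(RPKM + 0.1) scale in series 2 and by 2.15 in series 13.

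On that scale, which understates changes of low genes, Egr1 changed by 1.88 from 0 to 1 h of the upshift, the 6th highest of the 10173 tested genes, and Egr2 by 1.57. Fos, outside the ranking, changed by 1.90. At least 2-fold higher in both upshift series were 15 tested genes (0.147%), among them 1 of the 7 tested members, Egr1, and beside them the untested Fos. Lower by at least 2-fold in both were 9 genes (0.0885%), none of them a member. These counts have no test, since each time has 1 sample.

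The model for the pulse set the 1 h sample against the 4 other samples of its course, so its p-values measure the scatter around the other times, not that between cultures. Egr1 had a fitted upshift pulse of 2.65 ± 0.65 (log2, SE), the largest of the 10173 genes, with an adjusted p of 0.967 (edgeR quasi-likelihood test, Benjamini-Hochberg). Egr2 had 2.05 ± 0.40 in the same fit and 2.05 ± 0.39 (edgeR adjusted p = 0.976) without the filter, on 17550 genes. The other 5 tested members were fitted between -0.17 and 0.47. The test called 0 genes (0.0%) and so 0 of 7 members, while 187 genes had an unadjusted p under 0.05, Egr1 and Egr2 among them. DESeq2 called 6 genes, and Egr2 (2.06 ± 0.47, DESeq2 adjusted p = 0.0266), which the 1 h value itself brought into the test, was the only member among them.

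Fos was called where no filter on low levels was applied and 17550 genes were tested, with an upshift pulse of 2.21 ± 0.25 and an edgeR adjusted p of 0.0437. There it was 1 of 3 genes called. Within series 11 and 13 its pulse was 2.47 (edgeR adjusted p = 0.0323) and within series 2 and 5 it was 1.60 (edgeR adjusted p = 1.00), so that the call did not hold within series 2 and 5.

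**Figure D2:**
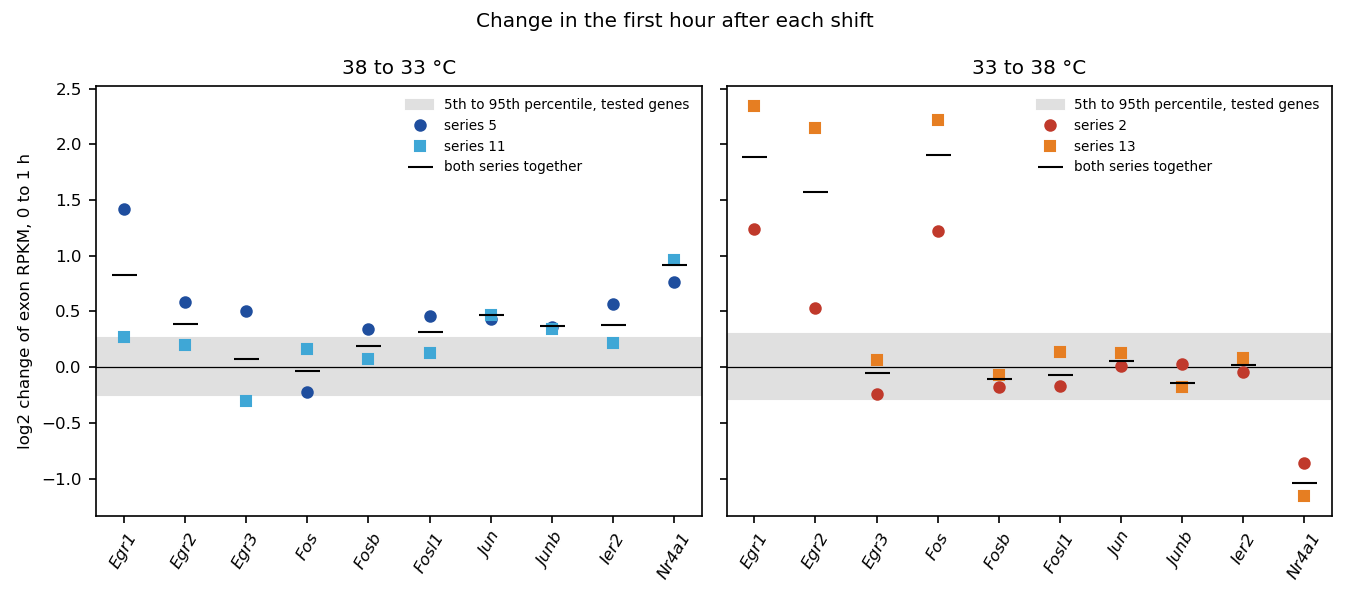
Change of exon RPKM from 0 to 1 h (log2, pseudocount 0.1) for each member in the downshift (left) and the upshift (right), with 1 point per column series, a black bar for both series together and a grey band for the 5th to 95th percentile of the tested genes. In the upshift Egr1, Egr2 and Fos lie above the band and Nr4a1 below it. Egr2 passed the filter only through its 1 h upshift sample. In the downshift Egr1, Jun, Junb and Nr4a1 lie above the band in both series, Egr1 only just in series 11.

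Nr4a1 went the other way after warming. It measured 3.32 RPKM at 0 h of the upshift, 1.57 at 1 h, 1.01 at 3 h, 1.26 at 6 h and 1.41 at 9 h. The 0 h sample stood above all 4 later ones, in series 2 (2.73 RPKM against at most 1.61) and in series 13 (3.92 against at most 1.70). Its change by 1 h was -1.04 on the log2 scale, the 19th lowest of 10173 genes, and by 3 h it was -1.62, the 3rd lowest.

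Jun, Junb, Ier2 and Fosl1 showed little of a pulse after warming. Jun measured 79.7, 83.0, 77.9, 60.9 and 55.7 RPKM over the 5 upshift times and Ier2 22.6, 22.9, 16.3, 13.6 and 13.7. Their 1 h samples were the highest of the course by a narrow margin, and their first-hour changes of 0.06 and 0.02 lay inside the band of -0.29 to 0.30 that holds the middle 90% of tested genes. Junb (13.6, 12.4, 9.07, 8.73 and 10.4 RPKM) and Fosl1 (27.9, 26.5, 28.3, 22.7 and 15.4 RPKM) were not highest at 1 h. Egr3 measured 0.0677 RPKM at 0 h and 0.0620 at 1 h, and Fosb 0.156 and 0.139, on 13 to 26 and 30 to 87 exon reads over the course. Without the filter their upshift pulses were 0.00 ± 0.46 (edgeR adjusted p = 1.0) and 0.29 ± 0.47 (edgeR adjusted p = 0.976).

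After cooling, Nr4a1 measured 1.68 RPKM at 0 h, 3.27 at 1 h, 5.54 at 3 h, 4.68 at 6 h and 3.09 at 9 h. All 4 later samples stood above the 0 h sample, in series 5 (1.22 against at least 1.91) as in series 11 (2.23 against at least 4.44). Its change was 0.92 by 1 h, the 17th highest of 10173 genes, and 1.66 by 3 h, the 6th highest.

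Egr1 measured 0.842 RPKM at 0 h of the downshift, 1.57 at 1 h, 3.64 at 3 h, 1.18 at 6 h and 1.44 at 9 h. Its time course differed between the series. In series 5 it was highest at 1 h, with 0.795, 2.30, 1.02, 1.04 and 1.21 RPKM, and in series 11 at 3 h, with 0.922, 1.132, 6.71, 1.36 and 1.58. A further series 10, which covers only 1 and 3 h of the downshift, had 2.41 RPKM at 1 h and 10.3 at 3 h. The 3 h change of 1.99, the 4th highest of the tested genes, thus came from series 11 (2.74) far more than from series 5 (0.33).

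Egr2 measured 0.678, 0.918, 1.44, 0.848 and 0.786 RPKM over the downshift and was highest at 3 h in both series. Ier2, with 14.0, 18.2, 21.02, 18.3 and 16.9 RPKM, was also highest at 3 h in both. Jun (68.9, 95.2, 71.1, 64.0 and 68.7 RPKM) and Junb (12.97, 16.7, 15.9, 12.4 and 9.83 RPKM) were highest at 1 h in both. In series 10, however, Jun had 56.8 RPKM at 1 h and 70.5 at 3 h, and Junb 20.8 and 22.7. Fosl1 was highest at 1 h with 26.9 RPKM, against 21.6 at 0 h and 15.6 at 9 h, but at 3 h within series 11. Fos stayed between 0.228 and 0.338 RPKM and had its highest sample at 0 h.

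Counted by the time of the maximum, 2 of the 6 tested members other than Egr2 (Egr1 and Jun) were highest at 1 h in both upshift series, against 4.46% of tested genes, and 1 (Nr4a1) at 0 h, against 16.2%. In the downshift 2 of the 6 (Jun and Junb) were highest at 1 h in both series, against 3.05%, and 2 (Ier2 and Nr4a1) at 3 h, against 2.54%. Only Jun among the 10 members was highest at 1 h in both complete series of both courses. In the first hour of the downshift 0 of the 7 were at least 2-fold higher in both series, against 5 genes (0.0491%), and 0 at least 2-fold lower, against 4 genes (0.0393%).

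The downshift pulse at 1 h called 0 genes (0.0%) and 0 members, with 51 genes at an unadjusted p under 0.05 and 0 called by DESeq2. Among the members Jun alone was in that number, at 0.48 ± 0.18 (edgeR adjusted p = 0.992). Egr1 had -0.17 ± 0.76 and Egr2 -0.03 ± 0.46. With 1 and 3 h set jointly against 0, 6 and 9 h, a window chosen after the data were seen, Egr1 had 1.18 ± 0.73 in the downshift (edgeR adjusted p = 0.984) and 1.83 ± 0.73 in the upshift (edgeR adjusted p = 0.995).

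The difference between the pulses, downshift minus upshift, was -2.83 ± 1.09 for Egr1, the lowest of the 10173 genes (edgeR adjusted p = 0.840). For Egr2 it was -2.08 ± 0.64 with the filter (edgeR adjusted p = 0.840) and -2.08 ± 0.63 without it (edgeR adjusted p = 0.859). Neither passed the adjusted threshold, and 0 genes did (0.0%), with 204 at an unadjusted p under 0.05 and 3 called by DESeq2, no member among them. Within series 2 and 5 the difference was -0.91 for Egr1 and -1.07 for Egr2, and within series 11 and 13 it was -4.33 and -2.73. For Fos, without the filter, it was -2.00 ± 0.41 (edgeR adjusted p = 0.859). The pulse at 1 h counts the 3 h downshift sample, where Egr1 measured 3.64 RPKM, among the times it is set against. In the window of 1 and 3 h against 0, 6 and 9 h, the Egr1 difference was -0.65 ± 1.05 (edgeR adjusted p = 0.953).

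**Figure D3:**
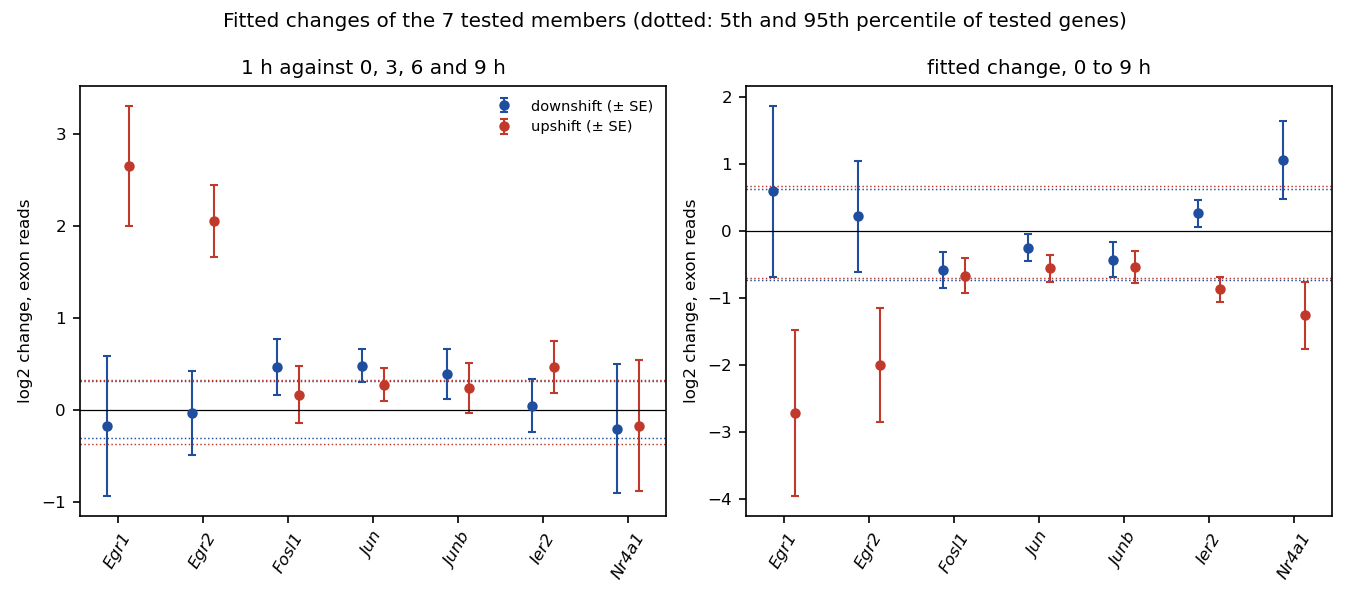
Fitted log2 changes (± SE) of exon reads for the 7 tested members, with the pulse at 1 h on the left and the change from 0 to 9 h on the right, downshift in blue and upshift in red. Dotted lines mark the 5th and 95th percentile of the tested genes in each course. The upshift pulses of Egr1 (2.65) and Egr2 (2.05) stand far outside these lines, but Egr2 passed the filter only through that 1 h sample. On the right Egr1, Egr2, Ier2 and Nr4a1 lie above 0 in the downshift and below 0 in the upshift.

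Over the whole 9 h the courses were compared by a slope on log2(h + 1), given as the fitted change from 0 to 9 h. Ier2 fell in the upshift by 0.87 ± 0.19 on the log2 scale (edgeR adjusted p = 0.00689) and was the only member called there, 1 of 7, against 33.1% of tested genes. DESeq2 called 3 members there, against 3844 of the 10173 genes. Within series 2 and 5 the Ier2 change was -0.60 (edgeR adjusted p = 0.0572). All 7 members had a fitted upshift change below 0, where the median of all tested genes was -0.01. Within series 2 and 5, however, Junb alone was above 0, at 0.29, and within series 11 and 13 it had -1.04. An unadjusted p under 0.05 was found for 6 of the 7 members, against 4542 of the 10173 genes. Egr2, which only its 1 h upshift sample brought into the test, was among the 6, so both counts are descriptions. In the downshift 0 of 7 were called by edgeR, against 32.1% of genes. There 0 had an unadjusted p under 0.05, against 4533 of the 10173 genes, and DESeq2 called 0, against 3790.

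The difference in slope, downshift minus upshift, was called for Ier2 and Nr4a1, 2 of 7, against 46.9% of tested genes. This share of members is below that of all genes. Nr4a1 had 1.06 ± 0.59 in the downshift and -1.26 ± 0.50 in the upshift, and the difference was 2.32 ± 0.77 (edgeR adjusted p = 0.0313), the 59th highest of 10173. Ier2 had 0.27 ± 0.20 and -0.87 ± 0.19, with a difference of 1.14 ± 0.27 (edgeR adjusted p = 0.00699). Egr1 (3.32 ± 1.79) and Egr2 (2.22 ± 1.195) had differences of like size with larger errors and missed the threshold (edgeR adjusted p = 0.152 and 0.151). Both calls were lost within series 2 and 5, where the Nr4a1 difference was 1.70 (edgeR adjusted p = 0.0808) and that of Ier2 0.80 (edgeR adjusted p = 0.0669). Leaving out the downshift 0 h sample also lost both (Nr4a1 1.23, Ier2 0.69), and a block for time point (2.26, edgeR adjusted p = 0.0969) or leaving out the downshift 6 h (2.24), upshift 0 h (1.24) or upshift 6 h (2.33) sample lost that of Nr4a1.

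Intron reads, which stem mostly from RNA not yet spliced, were tested for 4 members (Egr1, Egr2, Fosl1 and Nr4a1) and 9376 genes. Jun and Ier2 have no intron in the annotation, and Junb was at 0 intron reads in every column. Egr1 had 19 intron reads at 0 h of the upshift, 66 at 1 h, 6 at 3 h, 4 at 6 h and 12 at 9 h. In the downshift it had 4, 18, 23, 10 and 14 reads. The 1 h sample of the upshift thus stood above the other 9, as on exons with the 2 complete series summed. By single column, however, the highest Egr1 exon level was 10.3 RPKM, in series 10 at 3 h of the downshift. From 0 to 1 h the Egr1 intron level changed by 2.01 in the downshift (log2 of RPKM + 0.01, 2.29 and 1.77 by series), the 7th highest of 9376 genes, and by 1.80 in the upshift, on these few reads.

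The intron pulse of Egr1 in the upshift was 2.61 ± 0.61, the 2nd highest of 9376 genes (edgeR adjusted p = 0.146), close to its exon pulse of 2.65. Egr2, on 24, 44, 9, 5 and 11 intron reads in the upshift, had 1.77 ± 0.65 (edgeR adjusted p = 0.413). In the downshift it had 2, 22, 14, 19 and 8 intron reads and a pulse of 0.90 ± 0.76 (edgeR adjusted p = 0.996). The test called 17 genes (0.181%) in the upshift and 0 of 4 members. It called 0 (0.0%) in the downshift, with 342 genes at an unadjusted p under 0.05 and 0 called by DESeq2. For the difference it called 0 (0.0%), with 1027 at an unadjusted p under 0.05, among them Egr1 (-2.28 ± 0.99) and Nr4a1 (1.21 ± 0.51), and 199 called by DESeq2, none a member.

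Slopes of intron reads called 0 of 4 members in each comparison by edgeR. Over all tested genes 1.4% were called in the downshift, 1.96% in the upshift and 7.57% for the difference. Fosl1 alone had an unadjusted p under 0.05, at -0.77 ± 0.23 in the upshift (edgeR adjusted p = 0.106), against 1735 of the 9376 genes. DESeq2 called 1 member in the upshift, against 661 genes, and 0 members in the other comparisons.

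**Figure D4:**
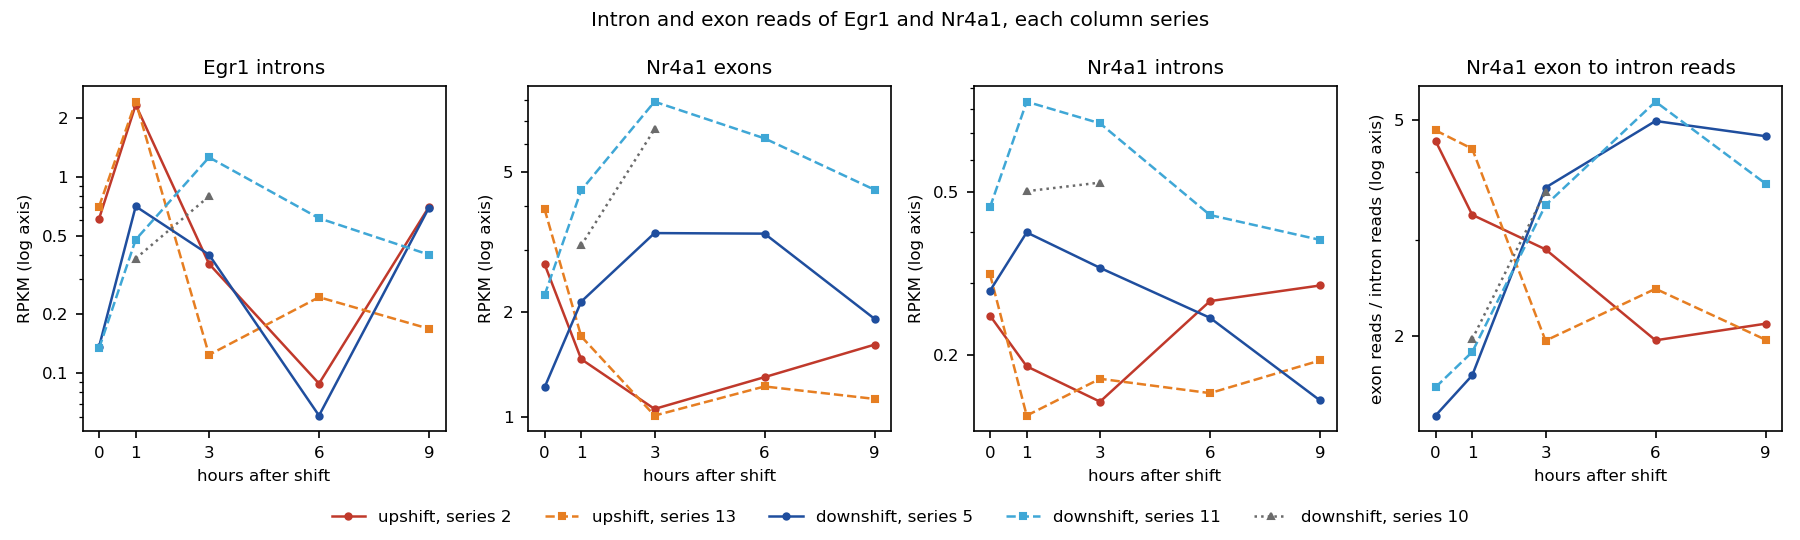
Egr1 intron level, Nr4a1 exon level, Nr4a1 intron level (RPKM, log axes) and Nr4a1 exon reads per intron read (log axis) against hours after the shift, 1 line per column series. The Nr4a1 ratio goes from 1.43 and 1.61 at 0 h to at least 3.81 at 9 h of the downshift series, and from at least 4.57 at 0 h to at most 2.10 at 9 h of the upshift series.

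Exon and intron reads of Nr4a1 took different courses. Intron reads were 0.373 RPKM at 0 h of the downshift, 0.616 at 1 h, 0.524 at 3 h, 0.342 at 6 h and 0.260 at 9 h. In the upshift they were 0.292, 0.163, 0.169, 0.214 and 0.243 RPKM. The highest intron level of the downshift was thus at 1 h and the highest exon level at 3 h, in both series.

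Exon reads per intron read of Nr4a1 were 1.54 at 0 h of the downshift, 1.82 at 1 h, 3.57 at 3 h, 5.23 at 6 h and 4.13 at 9 h. They were 4.71 at 0 h of the upshift, 3.86 at 1 h, 2.31 at 3 h, 2.15 at 6 h and 2.06 at 9 h. The lowest value was thus that of the 0 h sample at 38 °C, and the 3 highest were those of the downshift at 6 h, the upshift at 0 h and the downshift at 9 h, all cells at 33 °C.

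Whether this ratio had a slope over time was tested by fitting exon and intron reads of each sample in 1 model, a test added after the data were seen. Nr4a1 rose in the downshift by 1.72 ± 0.27 on the log2 scale (edgeR adjusted p = 0.0173), 1 of 4 members called, against 1.78% of genes. This call was lost within series 11 and 13 (1.66, edgeR adjusted p = 0.0581) and without the downshift 6 h (1.57) or 9 h (2.06) sample. In the upshift it had -1.07 ± 0.28 (edgeR adjusted p = 0.0880), and 0 of 4 members were called, against 1.24%. With introns scaled like exon reads, which moved the median of all genes from 0.04 to -0.13, Nr4a1 had -1.23 and was called (edgeR adjusted p = 0.0464). The difference was 2.79 ± 0.39 (edgeR adjusted p = 0.00316), the 9th highest of 9376 genes and the only call among 4 members, against 11.6% of genes. It was called within series 2 and 5 (2.89, edgeR adjusted p = 0.00217) and within series 11 and 13 (2.80, edgeR adjusted p = 0.00811). With introns scaled like exon reads it was 3.09 (edgeR adjusted p = 0.00159), where the median of all genes moved from -0.04 to 0.25. Egr1 (-0.54 ± 0.81), Egr2 (-1.27 ± 1.22) and Fosl1 (-0.30 ± 0.25) did not pass.

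The annotated Nr4a1 model, at chr15:101254269-101274795 on the plus strand, begins 12577 bases before the RefSeq start of the printed promoter window and has 17018 bases of intron, so much of its intron lies upstream of that start. Fosl1 (chr19:5447547-5455946, plus strand) overlaps Ccdc85b, Jun (chr4:95049034-95052222, minus strand) overlaps Junos, and Junb (chr8:84974484-84978718, minus strand) overlaps Prdx2, each partner on the opposite strand. The labels do not say how counting used strand, so reads of these 3 members may include some of their partners. No other annotated gene overlaps Egr2 (chr10:67535475-67542188), Egr3 (chr14:70077203-70082614) or Fos (chr12:85473890-85477273) on the plus strand, or Fosb (chr7:19302696-19310051) or Ier2 (chr8:84661331-84662852) on the minus strand. These positions are of GRCm38.

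Across the 10 samples the members fell into no single pattern. Pearson's r of log2 exon RPKM was highest for Egr1 with Egr2 (0.92), followed by Egr1 with Ier2 (0.85) and Egr2 with Ier2 (0.81), and lowest for Nr4a1 with Fosl1 (-0.15). The genes most like the mean profile of the 7 tested members were Mafk, a small Maf factor that pairs with other leucine zipper proteins (r = 0.96), Pa2g4, a growth-related RNA-binding protein (0.93), and Ddah1, which degrades methylated arginine (0.93). Adamts14, Prps1, C130039O16Rik, Zfp593, Rbms2 and Atad1 were also among the most alike, down to 0.90. These are descriptions over 10 libraries shared by all genes. Egr2 passed the filter only through its 1 h upshift sample, so its correlations and its part in the mean profile support nothing.

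Other genes of the response were read from lists. Of 20 other immediate early transcription factors 16 were tested, with a median pulse of 0.19 in the upshift and 0.16 in the downshift against 0.00 and 0.01 over all genes. Of 20 immediate early genes that code for no transcription factor 18 were tested, with medians of 0.40 and 0.16. Arc, a synaptic regulator also known as a serum response gene, measured 0.728, 5.13, 1.43, 0.994 and 1.27 RPKM over the upshift and 0.733 to 0.838 over the downshift. Its pulse difference was -2.26 ± 0.44 (edgeR adjusted p = 0.840). Cyr61, a matricellular SRF and YAP target, measured 101.5, 263.6, 111.6, 48.9 and 35.1 RPKM over the upshift. Arc and Cyr61 were thus highest at 1 h of the upshift. Others of these lists were not: Per1, a clock repressor, went from 4.83 RPKM at 0 h to 2.73 at 1 h (pulse difference 0.83 ± 0.43) and Klf10, a TGF-beta response factor, from 14.3 to 12.7 (0.76 ± 0.23), both with an edgeR adjusted p of 0.840.

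In slope, 4 of the 16 other factors were higher and 2 lower in the downshift than in the upshift, and 3 and 0 of the 18 other genes, where 2565 and 2209 of the 10173 tested genes were. Nfil3, a leucine zipper repressor, was among the lower (-2.37 ± 0.46, edgeR adjusted p = 0.00255), with 1.55 RPKM at 0 h and 8.001 at 9 h of the upshift. Cxcl1, a chemokine, was among the higher (1.98 ± 0.51, edgeR adjusted p = 0.0104), with 8.13 RPKM at 0 h, 12.1 at 1 h and 3.89 at 9 h of the upshift.

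Of 26 tested upstream kinases and factors, 11 were higher and 3 lower by the same comparison, where 2565 and 2209 of the 10173 tested genes were. The share of all genes called in either direction, 46.9%, stands beside each list below as well. The median difference of the 26 was 0.28 against 0.03 over all genes. Mapk8, which encodes the JUN kinase JNK1, had 1.44 ± 0.14 (edgeR adjusted p = 0.000113), Mapkapk2, a kinase downstream of p38, had 1.42 ± 0.14 (edgeR adjusted p = 0.000139), and Creb1 had -1.79 ± 0.49 (edgeR adjusted p = 0.0133). Of 17 feedback inhibitors 5 were higher and 0 lower. Dusp1, a phosphatase that switches off p38 and JNK, was 1 of the 5 (0.81 ± 0.28, edgeR adjusted p = 0.0344), with 19.5 RPKM at 0 h and 26.9 at 1 h of the upshift. Among 11 decay factors of AU-rich mRNAs 3 were higher and 1 lower, Elavl1, an mRNA-stabilising protein (-1.05 ± 0.22, edgeR adjusted p = 0.00350). Among 11 tested AP-1 and EGR target genes 2 were higher and 3 lower, with Tnc, a matrix glycoprotein, higher (1.27 ± 0.19, edgeR adjusted p = 0.000564) and Ccnd1, cyclin D1, lower (-0.85 ± 0.24, edgeR adjusted p = 0.0147).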

How the data were processed

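Total RNA of NIH3T3 cells depleted of ribosomal RNA gave strand-specific paired-end libraries, per the labels' protocols. The submitters' processing notes name STAR, bedtools and mm10. The deposited tables, though named RPKM, were taken to hold an estimated count of exon and intron reads per gene made by the authors. The reason was the size of their column totals, 15313355 to 48004603. The counts were rounded to whole numbers, and the 2 series columns of a sample were summed, with a per-gene offset for their mix. RPKM was computed here with gene lengths of GENCODE M21 (GRCm38), found for 36308 genes (95.3%).

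Tests used edgeR 4.0.16 (R 4.3.3; quasi-likelihood, TMM scaling) on genes with a mean of at least 1 exon RPKM and, for introns, also 0.05 intron RPKM, with Benjamini-Hochberg adjustment over all of them and a threshold of 0.05. SE is the change over the square root of F. DESeq2 1.42.0 was an alternative. Members and lists were chosen with earlier results of these data known, and named genes are all members, up to 4 per list by pulse difference, and the 10 most alike, of which 1 is not reported here. Nothing in the labels says whether series columns are separate cultures.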

Additional observations from a re-analysis of the deposited data

Results flagged for a closer look

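The slope of exon reads over 9 h differed between the courses for Nr4a1 by 2.32 and for Ier2 by 1.14 (log2, downshift minus upshift). The test of this difference called 2 of 7 members, a smaller share than the 46.9% of all tested genes. Both calls were lost within series 2 and 5 (edgeR adjusted p = 0.0808 for Nr4a1 and 0.0669 for Ier2). They were also lost without the downshift 0 h sample, and a block for time point lost that of Nr4a1. The exon-to-intron ratio of Nr4a1 differed by 2.79 in a like test of the difference, added after the data were seen. That test called 11.6% of genes. Series 10, which entered none of the comparisons above and covers only 1 and 3 h of the downshift, held levels above every 0 h column of that course. Egr1 measured 2.41 RPKM there at 1 h and 10.3 at 3 h, Egr2 2.48 at 3 h and Nr4a1 6.61 at 3 h.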

How the results depend on the processing

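The number of members called at 1 h of the upshift on exon reads was 0, and 1 with DESeq2 (Egr2), with no filter on low values (Fos) and with no filter in series 11 and 13 only (Fos). On intron reads it was 0, and 1 in series 11 and 13 only (Egr2, 2.42, edgeR adjusted p = 0.0464). Only its 1 h upshift sample brought Egr2 into these tests, so its calls are descriptions and support nothing. For the exon slope of the upshift the number of members called was 1, and 3 with DESeq2 and 2 with series 10 added. It was 3 in series 11 and 13 only (Junb, Ier2 and Nr4a1), against 2170 of the 10173 genes. In series 2 and 5 only it was 2 (Jun and, as a description, Egr2), against 2970 genes, and Ier2 was not called there. It was 1 to 4 when each sample was left out in turn. It was 4 without the downshift 0 h sample and 3 without that of 0 or 3 h of the upshift. For the exon slope difference it was 2, 0 in series 2 and 5 only and 0 to 3 with a sample left out. No groups share replicate samples in the labels, so the only pairing was by time point: with time point as a replicate block the count was 1, as Nr4a1 (2.26) had an edgeR adjusted p of 0.0969. For the exon slope of the downshift it was 0, and 0 to 2 with a sample left out. For the mean of both courses it was 0 on exons, 1 with DESeq2, 1 in series 2 and 5 only and 0 to 3 with a sample left out. On introns the slope of the upshift called 0, 1 with DESeq2 and 0 to 1 with a sample left out, and the mean of both courses 0 and 0 to 1.

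Members changed at least 2-fold from 0 to 1 h, series summed, were 0 up in the downshift (1 in series 5 alone), 0 down (1 for 1 h against 3 h), and 1 down in the upshift (0 with a pseudocount of 1, 0 in series 2 alone and 0 for 1 h against 3 h). The downshift pulse of Egr1 (-0.17) was 1.18 for 1 and 3 h against 0, 6 and 9 h, 1.19 in series 2 and 5 only, 0.031 with a slope added to the pulse model and -0.41 to 0.45 with a sample left out. The downshift slope of Nr4a1 (1.06) was -0.025 to 1.88 with a sample left out, the lowest without the 0 h sample. The causes were not tested.

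Over all genes, calls ranged from 1594 to 3790 for the downshift exon slope (3269 in the report) and from 1873 to 3844 for the upshift (3365), lowest without the 0 h sample of the course. For intron slopes the difference called 21 genes with the replicate block and 1372 with DESeq2 (710), and the ratio difference 302 to 1767 (1086). With introns scaled like exon reads the ratio difference was called higher for 1496 and lower for 271 genes, against 506 and 580, with medians of all genes of 0.25 and -0.04. The upshift intron pulse called 0 to 191 (17). RLE scaling moved no median of all genes by over 0.1.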
